A study of Mus musculus with 46 samples.

Results

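S100 proteins and annexins are families of calcium-binding proteins, and 10 of their genes in the mouse are described here: S100a4, S100a6, S100a8, S100a9, S100a10 and S100a11, and Anxa1, Anxa2, Anxa3 and Anxa5. They were chosen by name as a set of family members, and all 10 were found among the 53465 genes of the expression table. The study measured the transcriptome of sorted kidney cells in mice that had sham surgery, unilateral ureteric obstruction (UUO), in which the ureter is tied so that urine cannot drain, or reversal of the obstruction by reimplanting the ureter (rUUO). Male wild-type C57BL/6 mice aged 8 to 12 weeks were used, and the rUUO kidneys were taken 14 days after reversal. The series describes UUO kidneys at day 2 and at day 7, but the sample labels do not give the day of a UUO sample, so the duration of obstruction was not resolved. Cells were sorted by 1 surface marker each into proximal tubule (PT) cells binding the lectin LTL, macrophages carrying F4/80, endothelial cells carrying CD31 and stromal cells carrying PDGFRB. Values were analysed for 3 sham, 4 UUO and 3 rUUO samples of PT cells, 4, 4 and 3 of macrophages, 4, 3 and 4 of endothelial cells, and 4, 4 and 4 of stromal cells. The title of PT UUO replicate 2 holds both SHAM and UUO, and it was grouped by its treatment label. Without it the counts of members called in PT cells were the same (8, 2 and 7 in the 3 comparisons given for these cells).

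Most S100 proteins are small dimers that change shape when calcium binds and then dock onto partner proteins, and annexins bind acidic phospholipids of membranes in the presence of calcium. The families meet in defined complexes: S100a10 forms a heterotetramer with Anxa2 that binds plasminogen at the cell surface, and S100a11 binds Anxa1. S100a8 and S100a9 pair as calprotectin, an abundant cytosolic complex of neutrophils and monocytes that is released in inflammation and signals through Tlr4 and Ager. Anxa1 is known as a glucocorticoid-regulated protein that acts on formyl peptide receptors to limit leukocyte entry, and Anxa5 binds the phosphatidylserine that dying cells expose.

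Of the members, 7 lie on chromosome 3 (GRCm38, listed as mm10 in the submitters' processing notes). S100a4 (ENSMUSG00000001020.8) lies at chr3:90603771-90606045 on the plus strand, S100a6 (ENSMUSG00000001025.8) at chr3:90612882-90624181 on the plus strand, S100a8 (ENSMUSG00000056054.9) at chr3:90668978-90670035 on the plus strand and S100a9 (ENSMUSG00000056071.12) at chr3:90692632-90695721 on the minus strand, so that these 4 genes span 91951 bases. S100a11 (ENSMUSG00000027907.4, chr3:93520488-93526287, plus strand) and S100a10 (ENSMUSG00000041959.14, chr3:93555080-93564643, plus strand) together span 44156 bases. Anxa5 (ENSMUSG00000027712.13) lies at chr3:36448923-36475894 on the minus strand, Anxa3 (ENSMUSG00000029484.12) at chr5:96793339-96845966 on the plus strand, Anxa2 (ENSMUSG00000032231.14) at chr9:69453620-69491795 on the plus strand and Anxa1 (ENSMUSG00000024659.14) at chr19:20373428-20390944 on the minus strand. Annotated neighbours overlap some of them: Gm42674 covers 2115 bases of S100a4 on the same strand and 1500015L24Rik covers all 17517 bases of Anxa1 on the other strand, and both neighbours are listed at 0 in every sample. Gm16144, on the other strand of Anxa2 over 2570 bases, and Gm42603, on the same strand as Anxa3 over 2146 bases, had group means of at most 1.15 and 4.52 FPKM. Whether the counting used strand is not given in the sources used here, so reads of overlapping genes cannot be told apart. The annotation also holds S100a11-ps, a near copy of S100a11 that could share its reads.

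Expression was given as FPKM, a read density scaled to transcript length and to library size, so that levels of different genes can be compared. Differences were tested on log2(FPKM + 1) with limma's moderated test within each population, on genes whose mean there reached 1 FPKM. A gene was called at a Benjamini-Hochberg adjusted p under 0.05 over all genes tested, and the p-values measure the spread between these samples, which may be technical in part. The added 1 FPKM makes differences of low genes smaller than their true ratios. The values of a sample summed to between 586929 and 884982 FPKM, of which genes of the mitochondrial genome took 58.7% to 75.6% in PT samples and 20.2% to 45.8% in the others. Each population carried its own markers: a set of 5 markers summed, in the other populations, to 0.29% to 4.38% of its level in its own population under the same surgery. In bulk samples such as these, fewer cells of a type and less RNA per cell cannot be told apart. All comparisons within a population share its samples, so UUO against sham, rUUO against UUO and rUUO against sham are not independent of each other.

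Promoter sequences (RefSeq, GRCm38.p6, 250 bases before the start site) were matched for 8 of the 10 members. The 3 printed here belong to S100a11 and Anxa2, which carried matches to an AP-1 motif and had 2 of the larger differences in PT cells, and to S100a9, which had the largest difference in stromal cells. Each is cut at the first annotated gene base and written 5′ to 3′ on the strand of its gene, and capitals mark matches to a motif, searched on both strands. The S100a11 sequence lies at chr3:93520246-93520487 (plus strand), the Anxa2 sequence at chr9:69453433-69453619 (plus strand) and the S100a9 sequence at chr3:90695722-90695971 (minus strand).
S100a11: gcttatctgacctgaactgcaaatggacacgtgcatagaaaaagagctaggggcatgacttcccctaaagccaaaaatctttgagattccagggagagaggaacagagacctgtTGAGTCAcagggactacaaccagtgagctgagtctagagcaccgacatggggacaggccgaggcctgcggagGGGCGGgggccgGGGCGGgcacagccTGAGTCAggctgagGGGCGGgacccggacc
Anxa2: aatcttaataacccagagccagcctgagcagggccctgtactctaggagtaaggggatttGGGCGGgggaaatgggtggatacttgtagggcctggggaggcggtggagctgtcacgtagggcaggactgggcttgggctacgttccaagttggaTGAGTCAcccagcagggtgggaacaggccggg
S100a9: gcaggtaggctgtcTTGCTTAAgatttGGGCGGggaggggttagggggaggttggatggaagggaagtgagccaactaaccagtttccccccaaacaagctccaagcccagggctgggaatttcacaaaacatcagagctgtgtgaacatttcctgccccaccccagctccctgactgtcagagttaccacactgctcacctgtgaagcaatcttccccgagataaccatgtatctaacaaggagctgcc
The S100a11 sequence holds TGAGTCA, a match to the AP-1 letters TGANTCA, at positions -136 and -38 from the start, and GC boxes (GGGCGG) at -64, -52 and -24. Anxa2 holds TGAGTCA at -95 and a GC box at -190, and its other matches lie outside the printed bases. S100a9 holds TTGCTTAA, a match to the C/EBP letters TTGCNNAA, at -236 and a GC box at -223. No marked matches overlap. Over the same 250 bases of all 32851 promoters in the table, TGANTCA was found in 6.75% (2 of the 8 members), TTGCNNAA in 9.56% (2 of 8), GGGCGG in 32.7% (3 of 8) and TATAAA in 12.4% (4 of 8). These are matches of letters and do not show a bound site.

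In sham kidneys, 7 of the 10 members (S100a4, S100a6, S100a11, Anxa1, Anxa2, Anxa3 and Anxa5) had their lowest mean in PT cells, and S100a8 and S100a9 had their highest in macrophages. Mitochondrial genes took 68.9% to 75.6% of the FPKM of sham PT samples. They took 24.6% to 28.0% in sham macrophages and 32.5% to 45.8% in sham endothelial and stromal cells. The sham levels and calls given here were not rescaled for this share, which lowers the FPKM of other genes most in PT cells. The place of PT cells against macrophages, as for S100a10 and S100a11, depends on this scaling. Over the 6 pairs of populations, 45 of 54 differences in level were called in the 9 members that reached the minimum, 8 of 9 in each pair that holds PT cells. S100a9 is among the 9 but reached the minimum only through macrophages. Its calls, all in pairs that hold macrophages, add no support. S100a4, Anxa1 and Anxa3 had sham PT means of 0.817, 0.587 and 0.680 FPKM and reached the minimum through the other populations. Their calls in pairs that hold PT cells add no support either. The fit took the samples as independent, although those of 1 number may come from 1 mouse. The percentages of all 14204 genes called in the same fit were 64.9% for PT against macrophage, 62.3% for PT against endothelial, 67.6% for PT against stromal, 45.7% for macrophage against endothelial (8 of 9 members), 48.1% for macrophage against stromal (7 of 9) and 24.2% for endothelial against stromal (6 of 9). S100a4, a cytoskeletal partner also known as FSP1, fibroblast-specific protein, had its highest sham level in endothelial cells at 229 ± 65.1 FPKM (SD, n = 4), against 20.8 ± 7.99 in stromal cells (n = 4), 19.4 ± 5.58 in macrophages (n = 4) and 0.817 ± 0.172 in PT cells (n = 3). Stromal cells and macrophages did not differ beyond their spread in S100a4 (adjusted p = 0.875, limma), whereas endothelial cells stood above stromal cells by 3.42 ± 0.28 on the log2 scale (SE, adjusted p = 4.62e-08).

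S100a6, also called calcyclin, followed the order endothelial (357 ± 32.7 FPKM), stromal (163 ± 45.5), macrophage (19.3 ± 3.97) and PT (4.57 ± 1.70), and all its pairs differed. S100a10 was at 255 ± 73.3 FPKM in endothelial and 100.4 ± 14.1 in stromal cells, with PT cells (11.1 ± 0.308) and macrophages (9.61 ± 5.69) not separated (adjusted p = 0.36, limma). Its partner Anxa2 was at 151 ± 18.7 FPKM in endothelial and 122 ± 12.9 in stromal cells, a pair that did not pass the test (adjusted p = 0.251), then 15.4 ± 2.78 in macrophages and 1.84 ± 0.535 in PT cells. The mean S100a10 level was above that of Anxa2 in sham PT cells and below it in sham macrophages.

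S100a11 and Anxa1, partners in a complex, were the members with their highest sham level in stromal cells. S100a11 stood at 696 ± 64.3 FPKM there, at 444 ± 62.0 in endothelial cells, at 121 ± 30.4 in macrophages and at 73.2 ± 10.2 in PT cells, with all pairs called. The direction between PT cells and macrophages depends on the mitochondrial share given above. Anxa1 stood at 66.4 ± 3.80, 30.3 ± 4.34, 2.90 ± 1.21 and 0.587 ± 0.137 FPKM in the same order. Anxa3, an annexin linked to angiogenesis, was highest in endothelial cells (81.6 ± 12.4 FPKM), and stromal cells (26.5 ± 6.12) exceeded macrophages (17.0 ± 3.65) by a small margin (adjusted p = 0.0307, limma). Anxa5 had nearly 1 level in macrophages (265 ± 45.9 FPKM), stromal cells (264 ± 28.7) and endothelial cells (261 ± 21.4), where no pair passed the test (adjusted p from 0.978 to 0.983), and 21.3 ± 5.67 FPKM in PT cells.

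The calprotectin genes were low everywhere in sham kidneys. S100a9 was at 3.27, 2.22, 5.0 and 2.91 FPKM in the 4 sham macrophage samples and passed the minimum for the test only through these macrophage samples, so its calls against the other populations are no support for a difference. S100a8 was listed at 0 in all sham endothelial and stromal samples and reached at most 3.10 FPKM in sham macrophages, and its mean was under the 1 FPKM needed for the test between populations.

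**Figure D1:**
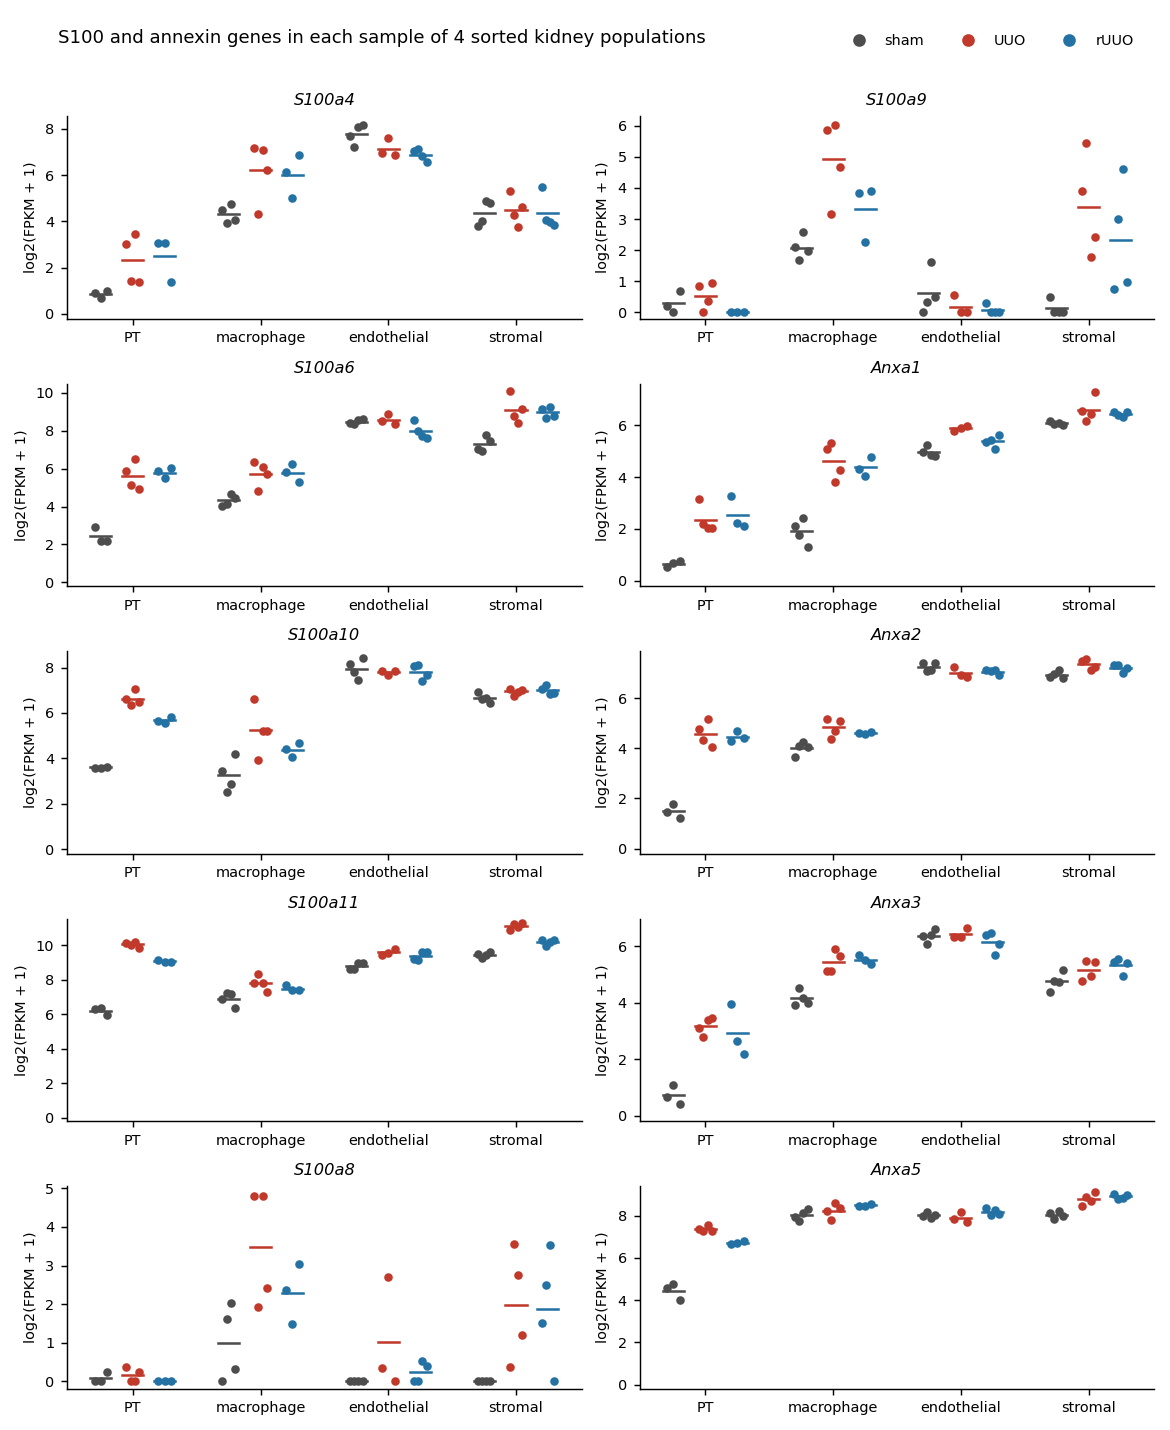
Level of each of the 10 members as log2(FPKM + 1) on the vertical axis of each panel, in every sample of the 4 populations, with sham, UUO and rUUO side by side, points for samples and bars for group means. In PT cells 8 members are higher in all UUO than in all sham samples, and S100a8 and S100a9 reach their highest values in UUO macrophage and stromal samples.

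All 8 members tested in PT cells rose in UUO against sham, where 32.8% of all 11416 genes tested were called. The lowest UUO value exceeded the highest sham value for each of the 8, and for 34.5% of all genes tested. S100a4, Anxa1 and Anxa3 had sham means under 1 FPKM and passed the minimum through UUO and rUUO samples, so their calls add no support. With no filter 7 of all 10 members were called, with a median difference of 2.69 against 0.13 for all genes. The median difference of the 8 was 2.98 on the log2 scale against 0.51 for all genes tested, where most called genes rose (3186 higher and 561 lower). With quantile normalization, which removes such a shift, the split of all called genes was 1218 higher and 1217 lower, the median of all genes was -0.04 and that of the members 2.56. With the mitochondrial genes left out and the rest rescaled, the split was 1940 higher and 863 lower. S100a8 and S100a9 were under the minimum in PT cells and reached at most 0.28 and 0.91 FPKM.

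S100a11 had the largest of these differences. Its PT values were 77.5, 80.4 and 61.6 FPKM in sham and 1130, 1024, 1170 and 931 FPKM in UUO. The UUO samples lay close together and far above the sham samples, a ratio of means of 14.5, and the difference was 3.85 ± 0.16 on the log2 scale (SE, limma adjusted p = 1.56e-09). S100a6 went from 6.53, 3.57 and 3.60 FPKM to 58.3, 33.9, 89.9 and 29.6 FPKM, with UUO replicates 1 and 3 higher than 2 and 4. The ratio of its means was 11.6 and the difference 3.18 ± 0.34 (adjusted p = 1.02e-05).

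Both partners of the Anxa2 and S100a10 complex rose in PT cells. Anxa2 was at 1.75, 2.41 and 1.35 FPKM in sham and at 26.0, 18.9, 34.6 and 15.5 FPKM in UUO. Every UUO sample exceeded every sham sample, with a ratio of means of 12.9 (3.08 ± 0.28 on the log2 scale, adjusted p = 1.88e-06, limma). S100a10 was at 11.1, 10.9 and 11.5 FPKM in sham and at 96.3, 80.0, 133.7 and 87.3 FPKM in UUO. Its sham samples hardly varied, and the ratio of means was 8.91 (3.02 ± 0.21, adjusted p = 1.32e-07). Anxa5 went from 22.9, 26.1 and 15.1 FPKM to 167, 154, 191 and 153 FPKM. Its groups were well apart, at a ratio of 7.79 (2.93 ± 0.20, adjusted p = 1.32e-07).

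The other 3 called members of PT cells remained low in absolute terms. Anxa3 was at 0.59, 1.12 and 0.33 FPKM in sham and 7.52, 5.81, 9.33 and 10.02 FPKM in UUO (2.45 ± 0.38 on the log2 scale, adjusted p = 0.000305, limma). Anxa1 was at 0.44, 0.61 and 0.71 FPKM in sham and 7.97, 3.53, 3.06 and 3.16 FPKM in UUO, where replicate 1 stood apart (1.69 ± 0.37, adjusted p = 0.00326). S100a4 was at 0.85, 0.63 and 0.97 FPKM in sham and 7.09, 1.68, 10.04 and 1.59 FPKM in UUO. Replicates 1 and 3 were again the higher ones, as for S100a6, and the call was marginal (1.46 ± 0.54, adjusted p = 0.0495). It was lost on leaving out any 1 of sham replicates 1, 2 and 4, UUO replicates 1 and 3 or rUUO replicates 2 and 3, and also with quantile normalization (0.81), with no filter and with the mitochondrial genes left out (1.26). The Anxa1 call was lost with quantile normalization (1.04).

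Markers of other cells were measured beside these results. The summed markers of macrophages, endothelial and stromal cells would, at the share they had in PT samples, bring with them a level of S100a4, Anxa1, Anxa2 and Anxa3 equal to 160%, 176%, 127% and 111% of the sham mean, so the sham values of these 4 members are at the level of that background. In UUO the same share amounts to 29.3%, 19.7%, 6.73% and 11.2% of the mean. For S100a6 it amounts to 82.4% in sham, most of the sham mean, and to 9.69% in UUO. For Anxa5 it is 25.5% and 2.76%, for S100a10 22.1% and 2.21%, and for S100a11 15.9% and 1.35%. The 5 PT markers summed to 1669 to 2272 FPKM in sham samples, to 456 to 614 FPKM after obstruction and, with reversal, to 1019 to 1313 FPKM. Mitochondrial genes took 68.9% to 75.6% of the summed FPKM of sham PT samples, 58.7% to 66.4% with obstruction and 68.1% to 71.3% after reversal. The 3 markers of thick ascending limb and distal tubule summed to 26.1 to 40.8 FPKM in sham and 149 to 201 in UUO, of which only Umod was called (17.4 to 147 FPKM), with Slc12a1 and Slc12a3 not called. Of the 4 collecting duct markers, which summed to 12.9 to 17.6 and 39.8 to 75.8 FPKM, Krt7 (0.713 to 22.2 FPKM) and Fxyd4 (8.50 to 23.0 FPKM) were called higher and Aqp2 and Aqp3 were not. The 5 monocyte markers summed to 1.34 to 5.73 FPKM in sham and 26.0 to 31.9 FPKM in UUO PT samples, of which Plac8 was tested and was higher. The part of these cells and of the mitochondrial share in the members' rise was not tested.

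After reversal, S100a11 and S100a10 came down in PT cells but did not return to sham. In rUUO against UUO 2 of 8 members were called, both lower, where 3.83% of all genes were called. S100a11 was at 568, 527 and 526 FPKM in rUUO, below all UUO and above all sham samples, and fell by 0.97 from UUO (SE 0.16, adjusted p = 0.00559, limma). S100a10 was at 48.3, 46.7 and 55.9 FPKM, likewise between the groups, and fell by 0.94 (SE 0.21, adjusted p = 0.0254). The S100a10 call was lost without UUO replicate 1 or 3 or rUUO replicate 2 or 3, which left 1 member called. Anxa5 was at 100.8, 104.5 and 110.6 FPKM in rUUO, also between the groups with no overlap, without passing the test (-0.65 ± 0.20, adjusted p = 0.0849). The median of all genes was -0.27 in this comparison, and of all called genes 77 were higher and 360 lower, against 211 and 148 with quantile normalization and 148 and 157 with the mitochondrial genes left out.

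The other members kept values near those of UUO. S100a6 was at 58.2, 43.8 and 64.1 FPKM in rUUO, Anxa2 at 18.5, 24.5 and 20.0 FPKM, Anxa1 at 8.66, 3.74 and 3.29 FPKM and Anxa3 at 14.5, 5.17 and 3.48 FPKM, each overlapping the UUO group (differences from 0.18 to -0.26, adjusted p from 0.731 to 0.841, limma). Against sham, 7 of the 8 members were higher in rUUO, where 7.46% of all genes were called. Their differences ran from 1.88 ± 0.39 for Anxa1 (adjusted p = 0.0081) through 2.88 ± 0.17 for S100a11 (adjusted p = 2.75e-07) to 3.36 ± 0.37 for S100a6 (adjusted p = 3.29e-05). Anxa1 and Anxa3, among the 7, passed the minimum through UUO and rUUO samples, so their calls add no support. With no filter 6 of all 10 members were called. S100a4, at 7.48, 7.43 and 1.58 FPKM, was not called (1.65 ± 0.57, adjusted p = 0.0994).

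In macrophages 8 of 10 members rose in UUO against sham, where 4.99% of 13332 genes were called. The median difference of all 10 members tested was 1.66 on the log2 scale against -0.03 for all genes. Anxa1 had the lowest adjusted p. It was at 3.35, 2.45, 4.30 and 1.48 FPKM in sham and 32.8, 38.4, 12.9 and 18.3 FPKM in UUO, with no overlap. The ratio of means was 8.84 and the difference 2.70 ± 0.35 (adjusted p = 0.000534, limma). Anxa3 was at 14.1, 22.2, 17.0 and 14.9 FPKM in sham and 33.6, 34.1, 58.5 and 49.9 FPKM in UUO, also without overlap (1.30 ± 0.22, adjusted p = 0.00465).

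S100a9 and S100a8 moved together in macrophages and unevenly between samples. S100a9 in UUO was at 56.5, 7.94, 63.2 and 24.7 FPKM, all above the highest sham value of 5.0 FPKM (2.84 ± 0.55 on the log2 scale, adjusted p = 0.00975, limma). S100a8 was at 0, 2.08, 3.10 and 0.24 FPKM in sham and 27.2, 2.79, 26.9 and 4.38 FPKM in UUO, so UUO replicate 2 fell within the sham range (2.50 ± 0.68, adjusted p = 0.0494). For both genes UUO replicates 1 and 3 were high and replicate 2 the lowest. After reversal S100a9 was at 13.2, 3.76 and 13.8 FPKM and S100a8 at 4.18, 1.80 and 7.19 FPKM, overlapping UUO and sham and not called against either.

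S100a4, S100a6 and S100a10 had the same low replicate. Macrophage UUO replicate 2 also stood apart as a library, with 37.8% of its FPKM in mitochondrial genes against 22.6% to 26.4% in the other UUO macrophages and with macrophage markers summing to 3538 FPKM against 5979 to 6520 FPKM. The part of this in the low values was not tested. S100a4 was at 21.4, 14.3, 26.3 and 15.5 FPKM in sham macrophages and 144, 19.0, 135 and 73.6 FPKM in UUO. Replicate 2 lay inside the sham range, and S100a4 was not called (1.89 ± 0.54, adjusted p = 0.0598, limma). It was called without that sample and with the mitochondrial genes left out. S100a6 was at 15.6, 16.5, 23.9 and 21.3 FPKM in sham and 80.6, 27.1, 67.3 and 52.1 FPKM in UUO, replicate 2 again the lowest but above sham (1.42 ± 0.31, adjusted p = 0.0189). S100a10 was at 9.94, 4.78, 6.22 and 17.5 FPKM in sham and 96.1, 14.1, 35.3 and 36.1 FPKM in UUO, where replicate 2 overlapped sham (1.97 ± 0.47, adjusted p = 0.029).

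S100a11 (120.7 ± 30.4 FPKM in sham, 230 ± 67.2 in UUO, n = 4 each) and Anxa2 (15.4 ± 2.78 and 28.1 ± 6.96) rose by less, with groups that did not overlap. Their differences were 0.91 ± 0.23 (adjusted p = 0.0387, limma) and 0.82 ± 0.22 (adjusted p = 0.0498). UUO replicate 2 was the highest sample in S100a11 (317 FPKM), as in Anxa1, so the order of samples was not shared by all members. Anxa5, already high in sham, was at 265 ± 45.9 and 308 ± 66.6 FPKM and not called (0.21 ± 0.18, adjusted p = 0.582).

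Several of these macrophage calls rest on few samples. The count of 8 went to 2 with no filter on low genes, to 6 with quantile normalization or with a pseudocount of 0.1, to 7 with the replicate block, to 3 without sham replicate 1, sham replicate 2, UUO replicate 1 or UUO replicate 3, to 4 without sham replicate 3 and to 5 without sham replicate 4 or any 1 rUUO sample, and it was 8 without UUO replicate 2. The S100a11 call was lost without any 1 of the samples but UUO replicate 4, that of Anxa2 without any but UUO replicate 2, and that of S100a8 without any but UUO replicates 2 and 4. S100a10 was lost without sham replicates 1, 2 or 3 or UUO replicates 1, 3 or 4, and S100a6 without sham replicates 1 or 2 or UUO replicates 1 or 3. Anxa1, Anxa3 and S100a9 stayed called on leaving out any 1 sample.

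In rUUO against sham, Anxa1, Anxa3 and S100a6 were higher in macrophages, 3 of 10 members where 3.44% of all genes were called. Anxa1 was at 19.0, 15.2 and 26.3 FPKM in rUUO and above all sham samples (2.46 ± 0.38, adjusted p = 0.00203, limma). Anxa3 was at 50.1, 45.1 and 40.3 FPKM (1.37 ± 0.24, adjusted p = 0.00616) and S100a6 at 55.9, 75.0 and 37.7 FPKM (1.46 ± 0.34, adjusted p = 0.0286). The S100a6 call was lost without sham replicates 1, 2 or 4 or rUUO replicates 1 or 4. In rUUO against UUO none of the 10 members and 0% of all genes were called, and 1 member (S100a9, lower, -1.60 ± 0.59) had an unadjusted p under 0.05.

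Leukocyte markers moved in the same macrophage samples. The sum of 10 neutrophil markers was 23.4 to 75.6 FPKM in sham samples, 42.6 to 161 FPKM with obstruction and 95.2 to 113 FPKM after reversal. Csf3r, which macrophages also express, made up most of the sum (42.7, 82.5 and 103 FPKM), whereas Elane was at 0 in all macrophage samples and Ly6g in all but 1. In UUO the summed neutrophil markers were 106, 42.6, 161 and 54.3 FPKM in replicates 1 to 4, the higher in the same replicates 1 and 3 as S100a8 and S100a9. The 5 monocyte markers, in contrast, were even across UUO (255, 257, 281 and 234 FPKM) and above sham (56.3 to 94.7 FPKM) and rUUO (131 to 152 FPKM), with Ccr2 and Plac8 called higher in UUO. The 4 lymphocyte markers summed to 1.66 to 2.13 FPKM in sham and 3.37 to 51.5 in UUO. In sham macrophages, the other sorted populations would at their marker share bring 66.4% of the Anxa1, 54.8% of the S100a10 and 38.6% of the S100a6 level, and in UUO 5.54%, 14.3% and 17.3%. For Anxa2 this was 28.9% in sham and 11.4% in UUO. For S100a11 it was higher in UUO, at 25.3% of the mean against 20.0% in sham. The 2 erythroid markers summed to 15.5 to 172 FPKM in sham and 17.7 to 68.6 FPKM in UUO macrophages. The part of these cells in the members' differences was not tested.

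**Figure D2:**
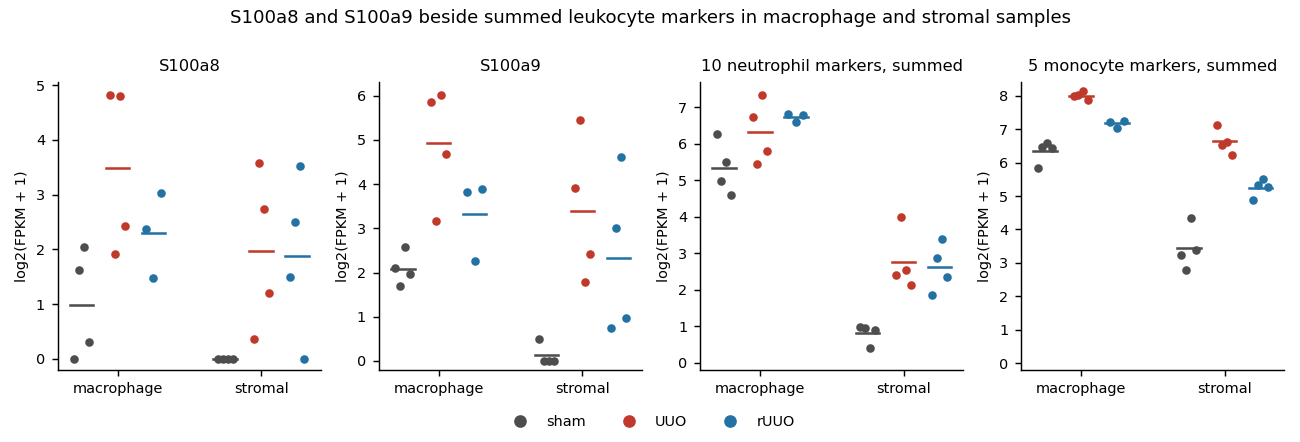
S100a8, S100a9, the sum of 10 neutrophil markers and the sum of 5 monocyte markers as log2(FPKM + 1) on the vertical axes, in macrophage and stromal samples of the sham, UUO and rUUO groups, with points for samples and bars for group means. In macrophages the neutrophil sum stays high in rUUO (95.2 to 113 FPKM) while S100a9 is at 3.76 to 13.8 FPKM; the stromal monocyte sum is almost all Plac8.

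Stromal cells held the highest S100a11 level of any group, and it rose further with obstruction. S100a11 was at 724, 614, 684 and 764 FPKM in sham, 1908, 2432, 2091 and 2464 FPKM in UUO and 1240, 993, 1144 and 1272 FPKM in rUUO, so that the 3 groups did not overlap. It rose by 1.67 ± 0.14 in UUO against sham (adjusted p = 6.08e-07, limma), fell by 0.93 in rUUO against UUO (SE 0.14, adjusted p = 0.00247) and remained 0.74 ± 0.14 above sham in rUUO (adjusted p = 0.00156). S100a6 was at 132, 122, 221 and 176 FPKM in sham, 1092, 440, 342 and 562 FPKM in UUO and 563, 412, 617 and 435 FPKM in rUUO. Its UUO and rUUO values overlapped each other and lay above every sham value, with differences from sham of 1.79 ± 0.29 (adjusted p = 0.000299) and 1.65 ± 0.29 (adjusted p = 0.00092).

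Anxa5 was at 275, 229, 297 and 255 FPKM in sham stromal cells, 350, 477, 411 and 563 FPKM in UUO and 522, 446, 463 and 504 FPKM in rUUO. Both surgical groups lay above sham (0.75 ± 0.16, adjusted p = 0.00216, and 0.87 ± 0.16, adjusted p = 0.00101, limma). These Anxa5 differences were 0.14 and 0.37 with quantile normalization and then not called, as was the rUUO difference of S100a11 (0.33). S100a9 was at 0.42 FPKM in 1 sham sample and listed at 0 in the other 3, and at 14.1, 42.7, 2.46 and 4.34 FPKM in UUO. It was called higher (3.27 ± 0.81, adjusted p = 0.00732), having passed the minimum only through the UUO and rUUO samples, and in rUUO was at 0.67, 7.02, 23.4 and 0.95 FPKM (2.20 ± 0.81 from sham, adjusted p = 0.0794). S100a8, listed at 0 in all sham samples, was at 0.29, 10.9, 5.70 and 1.29 FPKM in UUO and at 1.83, 4.64, 10.5 and 0 FPKM in rUUO, and was called in neither (adjusted p = 0.0532 and 0.0878). The UUO difference of S100a8 was called with quantile normalization, with the mitochondrial genes left out and with a pseudocount of 0.1. S100a8 too passed the minimum only through the UUO and rUUO samples, so these calls are no support for a difference.

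In all, 4 of 10 members were called in stromal UUO against sham, where 26.4% of 14033 genes were called, so the members' share was near that of all genes. S100a9 is among the 4 but passed the minimum only through UUO and rUUO samples, so its call adds no support. The median difference of the 9 members with signal in both groups was 0.52, against -0.07 for all genes. The 9 include S100a9, which was listed at 0 in 3 of 4 sham samples. In rUUO against UUO 1 of 10 was called, where 4.17% of genes were, and in rUUO against sham 3 of 10, where 17.2% were. The rUUO against sham count was 5 with a pseudocount of 0.1 and 1 with quantile normalization. The former added S100a8 and S100a9, which passed the minimum only through UUO and rUUO samples. Of all called genes 1626 were higher and 781 lower in rUUO against sham, against 1207 and 1135 with quantile normalization and 1035 and 1043 with the mitochondrial genes left out. The latter setting moved the UUO against sham split from 1881 higher and 1823 lower to 1549 and 2445, and the median of all genes from -0.07 to -0.22.

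Among the members not called, Anxa1 was at 66.4 ± 3.80, 100.1 ± 35.9 and 84.5 ± 5.29 FPKM in sham, UUO and rUUO stromal cells, with replicate 4 of UUO at 152 FPKM. Anxa2 was at 122 ± 12.9, 163 ± 23.8 and 146 ± 15.0 FPKM and S100a10 at 100.4 ± 14.1, 123 ± 11.4 and 128 ± 17.4 FPKM. Anxa3 was at 26.5 ± 6.12, 35.7 ± 8.80 and 39.9 ± 7.17 FPKM. S100a4 was at 20.8 ± 7.99, 23.4 ± 11.2 and 22.0 ± 14.8 FPKM in the sham, UUO and rUUO groups (n = 4 each), although its name FSP1 refers to fibroblasts, and its groups overlapped. The stromal neutrophil markers summed to 0.32 to 0.98 FPKM in sham samples, 3.36 to 14.9 FPKM with obstruction and 2.58 to 9.44 FPKM after reversal, with Ly6g and Elane at 0 in all samples, and UUO replicate 2 was the highest in this sum, in S100a8 and in S100a9. Markers of thick ascending limb and distal tubule were higher in sham (313 to 479 FPKM) than in UUO (28.5 to 59.8 FPKM) stromal samples, and the 5 stromal markers summed to 832 to 2144 FPKM and 5709 to 9598 FPKM in the same groups. The part of these marker differences in the members' values was not tested.

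Endothelial cells carried the highest sham means of S100a4, S100a6, S100a10, Anxa2 and Anxa3, with Anxa2 not called against stromal cells. They had the fewest called members in UUO and in rUUO against sham. In UUO against sham 2 of 8 members were called, both higher, where 1.98% of 13393 genes were called, and the median difference was -0.02 for the members and 0.03 for all genes. S100a11 was at 395, 385, 490 and 504 FPKM in sham and 685, 759 and 867 FPKM in UUO, without overlap (0.80 ± 0.17, adjusted p = 0.0271, limma). Anxa1 was at 29.8, 36.6, 27.6 and 27.2 FPKM in sham and 54.2, 59.0 and 61.2 FPKM in UUO, also without overlap (0.92 ± 0.20, adjusted p = 0.0266). Neither was called with the mitochondrial genes left out (0.67 and 0.80), nor without sham replicate 1 or any 1 of UUO replicates 1, 2 and 4. Without sham replicate 2 S100a11 was lost, and without sham replicate 3 Anxa1 was.

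S100a4, at its highest in endothelial cells, did not pass the test there. It was at 208, 146, 272 and 288 FPKM in sham, 125, 193 and 115 FPKM in UUO and 130, 138, 113 and 92.5 FPKM in rUUO. All rUUO samples lay below all sham samples, yet the difference missed the threshold (-0.91 ± 0.23, adjusted p = 0.0589, limma), and it was called without sham replicate 2, UUO replicate 2 or UUO replicate 4, with quantile normalization and with the mitochondrial genes left out. None of 8 members was called in rUUO against UUO, where 0.0597% of genes were, or in rUUO against sham, where 1.77% were. At an unadjusted p under 0.05 there were 2 (S100a6 and Anxa1, both lower) and 4 (S100a11 and Anxa1 higher, S100a4 and S100a6 lower). S100a8 was at 5.52 FPKM in UUO replicate 2 and at most 0.43 FPKM in every other endothelial sample.

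**Figure D3:**
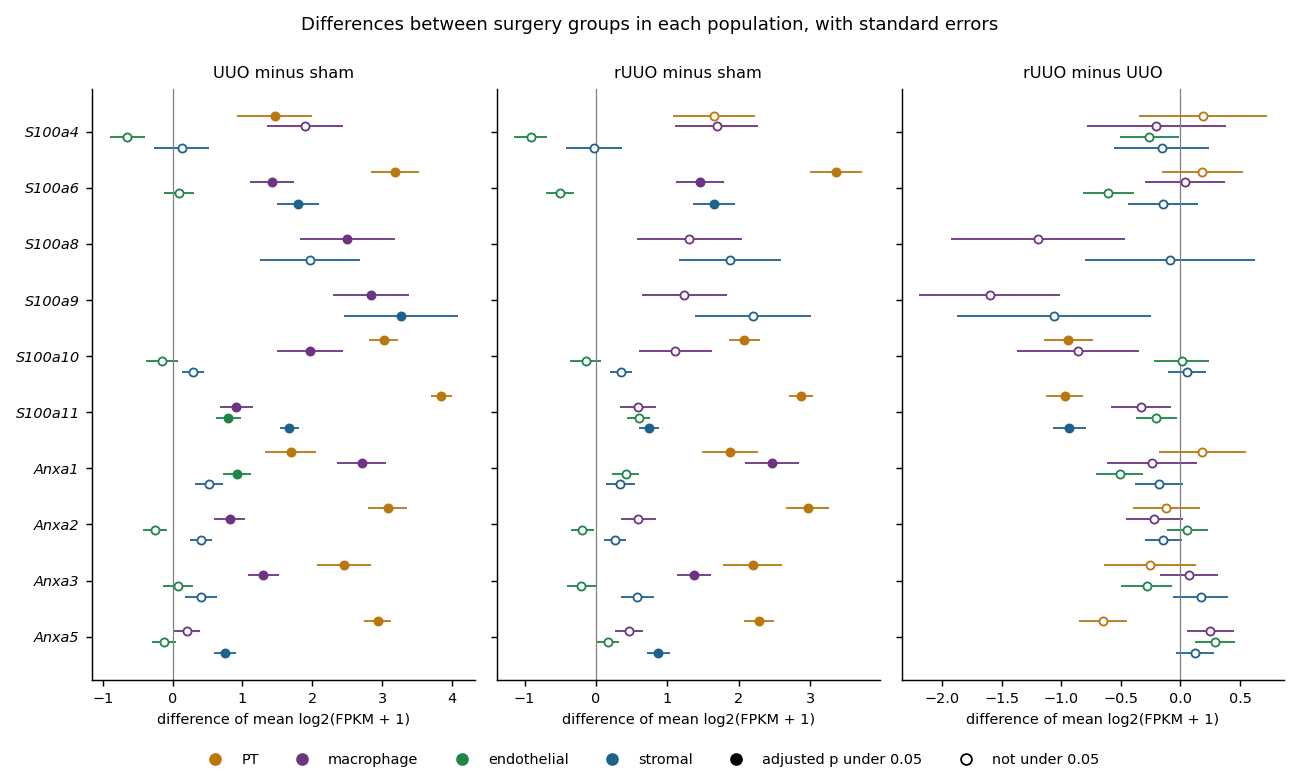
Difference of mean log2(FPKM + 1) on the horizontal axis for each member, in UUO minus sham, rUUO minus sham and rUUO minus UUO, with 1 colour for each population, bars for the standard error and filled points for an adjusted p under 0.05. The PT points sit furthest right in the first 2 panels for S100a6, S100a10, S100a11, Anxa2, Anxa3 and Anxa5, while Anxa1 is furthest right in macrophages (2.70 in UUO minus sham).

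The differences between populations were tested directly in 1 fit over all 44 samples. The fit took the samples as independent, although those of 1 number and surgery may come from 1 mouse. The UUO change differed among the 4 populations for 9 of 10 members, where 33.5% of 14332 genes differed, and S100a8 was the exception (adjusted p = 0.133, limma F test). S100a9 is among the 9 but passed the minimum there only through macrophage and stromal samples, so its call is no support for a difference. The adjusted p of the others ran from 2.27e-12 for Anxa5 to 0.0176 for S100a4. S100a11 rose more in PT cells than in macrophages by 2.93 ± 0.25 on the log2 scale, than in endothelial cells by 3.05 ± 0.26 and than in stromal cells by 2.18 ± 0.25 (adjusted p from 1.24e-08 to 4.31e-11). The PT difference also exceeded that of each other population for Anxa5, by 2.18 to 3.05, and for Anxa2, by 2.26 to 3.33. Anxa1 behaved otherwise: its macrophage rise exceeded that in stromal cells by 2.18 ± 0.40 (adjusted p = 9.14e-05) and that in endothelial cells by 1.78 ± 0.41 (adjusted p = 0.0104), while PT cells and macrophages were not separated (-1.01 ± 0.41, adjusted p = 0.0924).

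S100a10 rose more in macrophages than in stromal cells (1.67 ± 0.44, adjusted p = 0.00667, limma) and than in endothelial cells (2.12 ± 0.46, adjusted p = 0.00578), so within the Anxa2 and S100a10 pair both partners separated macrophages from endothelial cells (Anxa2 1.06 ± 0.28, adjusted p = 0.028) but only S100a10 was called between macrophages and stromal cells. The change from UUO to rUUO differed among populations for 1 member, Anxa5 (adjusted p = 0.0304, limma F test), where 5.57% of genes differed. Its differences were -0.65 in PT cells and 0.12 to 0.29 in the other 3, none of which was called by itself. The Anxa5 call was lost without PT UUO replicates 1 or 3 or any PT rUUO sample, and with the mitochondrial genes left out. The count was 2 without macrophage sham replicate 4 and 3 without macrophage UUO replicate 2.

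Of 26 other S100 genes, annexins, receptors and partners listed, 25 were found. In PT UUO against sham, 11 of the 14 tested were higher and none lower, where 32.8% of all genes were called. S100a14 and Dysf among them passed the minimum only through UUO and rUUO samples. The largest were Anxa4, an annexin of epithelial membranes (26.6 to 205 FPKM, 2.97 ± 0.24, adjusted p = 5.32e-07, limma), and Ahnak, a giant scaffold that binds the Anxa2 and S100a10 complex (2.03 to 15.2 FPKM, 2.41 ± 0.25, adjusted p = 5.69e-06). After reversal 2 of 14 were lower than in UUO, where 3.83% of all genes were called: Anxa4 (84.0 FPKM, -1.29 ± 0.24) and S100a1, a regulator of calcium handling in muscle (284 to 156 FPKM, -0.85 ± 0.19). Against sham 5 of 14 were still higher, where 7.46% of all genes were called, led by S100a13, a cofactor in unconventional secretion (1.92 ± 0.44), and Ahnak (1.85 ± 0.26).

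In stromal UUO against sham 4 of 15 were higher and 5 lower, where 26.4% of all genes were called, the largest being S100g, the calbindin of distal tubule and gut (459 to 13.8 FPKM, -4.71 ± 0.41, adjusted p = 8.06e-07, limma), and Anxa8 (0.933 to 8.36 FPKM, 2.27 ± 0.42, adjusted p = 0.000848), which was under 1 FPKM in sham. S100g was also lower in UUO macrophages (144 to 31.9 FPKM, -2.36 ± 0.56) and endothelial cells (445 to 74.5 FPKM, -2.47 ± 0.60), and beside it the thick ascending limb and distal markers summed to 148 to 758 FPKM in sham and 58.4 to 186 in UUO endothelial samples. In macrophages 1 of 13 was higher, S100a16 (2.82 to 8.47 FPKM, 1.38 ± 0.34, adjusted p = 0.0336), and 1 lower, where 4.99% of all genes were called, and in endothelial cells 1 of 12 was lower and none higher, where 1.98% were called. In rUUO against sham, where 3.44% of all genes were called in macrophages, 1.77% in endothelial and 17.2% in stromal cells, macrophages had S100a16 and Fpr1 higher, the latter a formyl peptide receptor of the Anxa1 pathway (3.03 to 15.0 FPKM, 2.21 ± 0.50, adjusted p = 0.0264), and S100g lower (-3.10 ± 0.60). Endothelial cells had S100g lower (-2.87 ± 0.56), and stromal cells had S100a16 higher (25.7 to 113 FPKM, 2.08 ± 0.22), 1 of 15, and S100g and Ager lower, 2 of 15. In rUUO against UUO stromal Anxa11 was higher (0.97 ± 0.26), 1 of 15 where 4.17% of all genes were called, and none of 13 or 12 was called in macrophages or endothelial cells, with 2 at an unadjusted p under 0.05 in each.

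**Figure D4:**
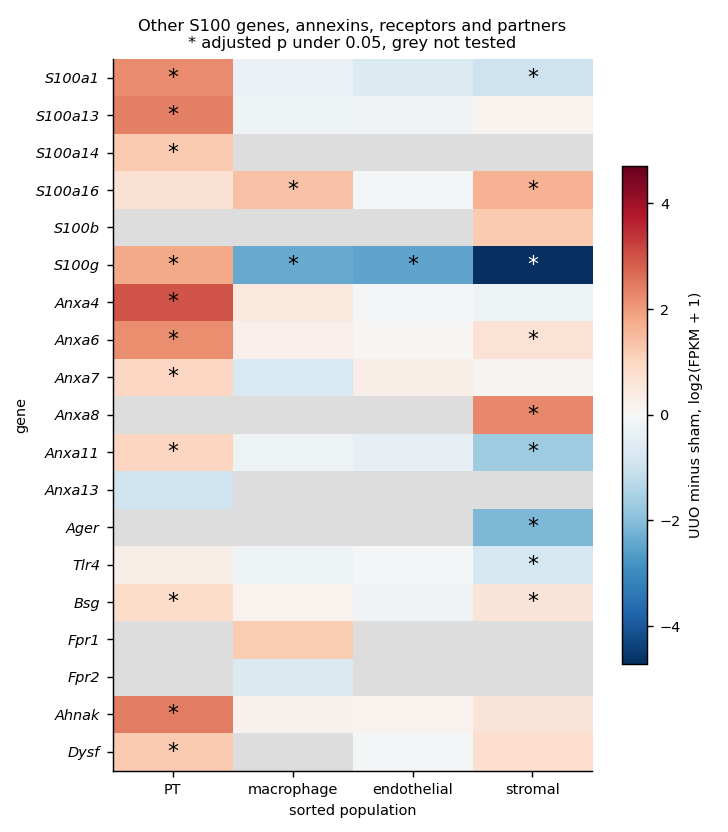
UUO minus sham difference of mean log2(FPKM + 1) as colour for the 19 listed family and partner genes (rows) tested in at least 1 of the 4 populations (columns), with an asterisk for an adjusted p under 0.05 and grey for genes under the minimum. The PT column is mostly red with 11 asterisks, and S100g is red in PT cells and blue in the other 3.

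Across the 12 group means of log2(FPKM + 1), members were compared with each other and with the 14332 genes of at least 1 FPKM on average. These 12 points share libraries' composition and the contrast between populations, and the coefficients are given as a description. Among members, S100a6 and Anxa2 were closest (Pearson r = 0.978), followed by S100a8 and S100a9 (0.95), S100a4 and Anxa3 (0.947), Anxa1 and Anxa2 (0.924) and S100a6 and Anxa1 (0.921). Of the pairs that form complexes, S100a10 and Anxa2 had 0.86 and S100a11 and Anxa1 0.692. Outside the set, S100a4 was most like Klf2 (0.976), Polb and Cenpt, and S100a6 most like Tuba1a, Pdlim7 and Phtf1. S100a10 was most like Hspb1 (0.97), Etl4 and Ly6a, and S100a11 most like Cyr61 (0.946), Atp8b1 and Tle3. S100a8 was most like Spg21 (0.94), Mki67 and Hist1h3b, and S100a9 most like Dmac1 (0.955), Serp1 and Ccl7. Anxa1 was most like Phf13 (0.975), Rab9 and Prkaca, Anxa2 most like Tspan17 (0.981), Tuba1a and Rras, Anxa3 most like Gbp2 (0.977), Tbp and Frg1, and Anxa5 most like Acbd3 (0.986), Me2 and Pygb.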

How the data were processed

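The authors sorted each kidney population, amplified its RNA (Ovation RNA-Seq System V2) and sequenced it on an Illumina HiSeq; they deposited 1 table of FPKM values per gene and sample. The submitters' processing notes list mm10, Bowtie2, RSEM, FastQC and DESeq2 without their roles. The files hold no counts, so depth is unknown and no counting interval is given. Of 46 value columns, 44 were used; 2 share a name and were not used.

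Samples were grouped by the labels. log2(FPKM + 1) was tested with limma 3.58.1 (R 4.3.3; moderated tests with a mean-variance trend) on genes with a mean FPKM of 1 or more, fitted in each population with all 3 surgeries, over sham samples for levels, and over all 44 samples for differences among populations. P-values were adjusted by Benjamini-Hochberg over all genes, at 0.05. The code was tested on simulated data. Named genes are the members, the 2 largest called family or partner genes per comparison and the 3 genes most alike per member. The level set by marker share is the sum, over the other populations, of their marker share times their mean level of the gene. Alternatives were a pseudocount of 0.1, no filter, quantile normalization, rescaling without the 37 mitochondrial genes, a replicate block and leaving out each sample. The members and lists were chosen with earlier results of these data known. Tables and plots were made in Python 3.11.15 with pandas 2.3.3 and matplotlib 3.10.9.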

Additional observations from a re-analysis of the deposited data

Results flagged for a closer look

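Of 78 groups of 4 samples tested for a sample far from the others, 4 were flagged, and chance flags about 1 in 20 groups. S100a4 was at 44.16 FPKM in stromal rUUO replicate 1, the highest of its group. Anxa1 was at 7.97 FPKM in PT UUO replicate 1. S100a9 was at 0.42 FPKM in stromal sham replicate 1 and at 0.24 FPKM in endothelial rUUO replicate 1, with the other samples of both groups listed at 0.

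The UUO against sham change differed among the 4 populations by limma's F test over all samples for 9 members. The adjusted p was 0.0176 for S100a4, 4.19e-05 for S100a6, 0.00182 for S100a9, 1.79e-06 for S100a10 and 5.82e-12 for S100a11. It was 0.000168 for Anxa1, 3.82e-11 for Anxa2, 3.08e-05 for Anxa3 and 2.27e-12 for Anxa5. For rUUO against UUO the change differed for Anxa5 (adjusted p = 0.0304). S100a9 passed the minimum in this fit only through macrophage and stromal samples.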

How the results depend on the processing

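No called difference of a member between surgeries turned its direction under any alternative run. For sham levels between populations, only the count of calls was followed under settings other than the replicate block. Their direction was not checked there. Counts of called members that moved by over 1.5 times, or to or from 0, come first. With the replicate block, PT rUUO against UUO gave 1, macrophage rUUO against sham 0 and endothelial UUO against sham 1. Same-numbered samples deviated together little. The median r was 0.0128 over 35 pairs within a population and 0.00931 over 57 pairs between populations. Pairs of other numbers had -0.0042 and -0.00298. Between populations 2 of the 57 same-numbered pairs were over 0.1 (highest 0.167), against 0 of 184 pairs of other numbers. The numbers were not taken as pairing the samples in the main fits. Samples of 1 number and 1 surgery may come from 1 mouse, which these values cannot decide. The block made 3 other calls and lost 8. With no filter, macrophage UUO against sham gave 2 and endothelial UUO against sham 1. With quantile normalization, endothelial UUO against sham gave 1, endothelial rUUO against sham 1, stromal rUUO against sham 1, and the test among populations for rUUO against UUO 2. Rescaled without mitochondrial genes, endothelial UUO against sham gave 0, endothelial rUUO against sham 1 and the test among populations for rUUO against UUO 0. With a pseudocount of 0.1, stromal rUUO against sham gave 5. The cause was not tested. Smaller moves of the count were macrophage UUO against sham (6 with a pseudocount of 0.1 or quantile normalization, 7 with the block), PT UUO against sham (7 with no filter, the block or rescaling, 6 with quantile normalization), PT rUUO against sham (6 with no filter), macrophage rUUO against sham (2 with no filter), stromal UUO against sham (5 with a pseudocount of 0.1, rescaling or the block) and stromal rUUO against sham (4 with the block), and sham level differences numbered 43 to 47 under these settings. Leaving out 1 sample gave, for UUO against sham, 7 to 8 members in PT cells, 3 to 8 in macrophages, 0 to 2 in endothelial and 4 to 5 in stromal cells. For rUUO against UUO it gave 1 to 3, 0 to 0, 0 to 0 and 1 to 1, and for rUUO against sham 7 to 8, 2 to 4, 0 to 1 and 3 to 4. Sham level differences numbered 41 to 45, and the tests among populations called 9 to 9 and 0 to 3. Quantile normalization moved the median of all genes from 0.21 to -0.07 in PT rUUO against sham, from 0.19 to 0.01 in endothelial rUUO against sham and in stromal rUUO against UUO, and from 0.16 to 0.02 in endothelial rUUO against UUO. Calls higher and lower went from 744 and 108 to 508 and 232, from 188 and 49 to 132 and 84, and from 414 and 171 to 192 and 168 in the first 3 of these. Endothelial UUO against sham went from 171 and 94 to 106 and 115 without mitochondrial genes, and PT rUUO against sham to 714 and 225. The files give no depth, so its limit on low members was not measured.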
